A study of Mus musculus with 12 samples.

Results

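This report follows 29 genes of sterol and fatty acid synthesis, with their sensors, regulators and transporters, in natural killer T (NKT) cells of 2 origins. The members are the rows of the deposited tables whose symbol is on a fixed list, and all 29 of 29 were found among 23284 genes. They have 5 roles: 7 enzymes of the early mevalonate pathway, 9 enzymes from squalene to cholesterol, 5 genes of sterol sensing and control, 3 of sterol transport and 5 of fatty acid synthesis. NKT cells carry T cell receptors for lipid antigens shown on the CD1d molecule.

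RNA was sequenced from cells sorted as 7AAD-, CD45R-, CD4-, CD8-, CD1d dimer+ and TCRb+ from C57BL/6 mice, in 12 libraries that form 4 groups of 3. The cKO groups are NKT cells of double-negative (DN) origin from E8III-Cre transgenic, Rag2-floxed mice, whose Rag2 gene is lost at the CD4+CD8+ double-positive (DP) stage. The YFP+ groups are NKT cells of DP origin from mice with the same E8III-Cre transgene and a Rosa26-loxP-STOP-loxP reporter, so all 4 groups carry the Cre. Each origin was sampled from thymus and from liver, and no age or treatment is given. The labels do not say whether replicates came from separate animals, so the p-values measure a spread between libraries that may be technical. Exactly equal values above 0 were listed for 375, 323 and 227 genes between pairs of thymus cKO libraries. Pairs of thymus YFP+ libraries shared 43 to 76. Liver cKO replicates 1 and 3 shared 286, against 28 and 22 in the other liver cKO pairs. The cKO replicates may therefore not be independent, and the cause was not tested. Only the cKO mice lose Rag2, so origin and mouse genotype cannot be told apart. Groups follow the sample titles and the column headers, but for the 6 liver libraries the free-text description gives the other kind of mouse. If the descriptions hold, every liver direction below is mirrored, and so is the liver part of each difference between tissues.

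The deposited values are FPKM, that is, fragments divided by the length of the transcript and the number mapped in the library, and the read depth is unknown. The floxed gene Rag2 was listed between 0 and 0.015 FPKM in the 6 thymus libraries and at 0 in the 3 liver cKO libraries, and between 0.985 and 1.365 FPKM in the 3 liver YFP+ libraries. The T cell gene Cd3e was listed between 292.1 and 1069 FPKM over the 12 libraries. Zbtb16, the transcription factor that defines NKT cells, was 3.26-fold lower in thymus cKO libraries, at 3.15, 3.84 and 4.27 FPKM against 11.01, 12.2 and 13.5 FPKM in YFP+ (log2 change -1.48, limma adjusted p = 0.000238), and did not pass in the liver (9.86 ± 0.949 against 11.4 ± 2.31 FPKM, SD, n = 3; adjusted p = 0.408). Of 10 tested NKT and T cell identity genes 3 were lower in thymus cKO cells (Zbtb16, Cd3e and Il2rb), and in the liver 2 were higher (Cd247 and Il2rb) and 1 lower (Cd3d). Over all tested genes 13.1% were called lower in the thymus, and 7.49% higher and 19.7% lower in the liver. The part of the identity genes in the results below was not tested. Thymus cKO replicate 1 stood apart with a summed erythroid marker level of 107.6 FPKM, against 0.179 and 14.3 FPKM in cKO replicates 2 and 3 of that tissue. The thymus YFP+ libraries had 0.152 to 0.860 FPKM, so cKO replicate 3 was raised as well. The myeloid sum of cKO replicate 1 was 88.4 FPKM, against 44.8 and 45.7 FPKM in cKO replicates 2 and 3 and 74.6 to 77.1 FPKM in YFP+.

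Cholesterol is built from acetyl-CoA. The early, mevalonate part of the pathway yields isoprenoid units, which also feed protein prenylation and ubiquinone, and the later part closes squalene into a ring and trims it to cholesterol. When sterols in the endoplasmic reticulum run low, Scap carries the SREBP transcription factors (encoded by Srebf1 and Srebf2) to the Golgi for cleavage, and the released fragments switch on the genes of synthesis. Insig proteins hold Scap back when sterols are plentiful, and liver X receptors such as Nr1h2 switch on export. Lymphocytes draw on these genes for membranes when they grow and divide.

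SREBP binds sterol regulatory elements, usually beside sites for the factors NF-Y (CCAAT) and Sp1 (GGGCGG). Promoters are shown for the 2 members whose 250 bases before the start hold the element core CACCCCAC, Hmgcs1 and Acat2, and for Acly, a member with the opposite change in the liver. They come from RefSeq (build GRCm38.p6), run 5′ to 3′ on the gene's strand and end at the RefSeq start or, in Acat2, where an earlier GENCODE M21 transcript starts; distances are counted from the RefSeq start. Capitals mark the element core, with the T that makes it TCACNCCAC where present, and CCAAT on either strand.
Hmgcs1, chr13:119690101-119690350, plus strand: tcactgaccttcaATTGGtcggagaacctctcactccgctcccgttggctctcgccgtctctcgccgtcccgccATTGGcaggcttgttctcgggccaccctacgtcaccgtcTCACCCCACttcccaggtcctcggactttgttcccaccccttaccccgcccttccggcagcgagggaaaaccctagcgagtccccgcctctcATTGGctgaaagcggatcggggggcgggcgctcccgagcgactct
Acat2, chr17:12960748-12960975, minus strand: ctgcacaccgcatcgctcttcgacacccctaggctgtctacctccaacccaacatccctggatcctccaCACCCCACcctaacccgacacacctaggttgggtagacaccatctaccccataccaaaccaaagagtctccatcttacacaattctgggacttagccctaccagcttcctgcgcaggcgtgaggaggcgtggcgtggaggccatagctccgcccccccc
Acly, chr11:100528001-100528250, minus strand: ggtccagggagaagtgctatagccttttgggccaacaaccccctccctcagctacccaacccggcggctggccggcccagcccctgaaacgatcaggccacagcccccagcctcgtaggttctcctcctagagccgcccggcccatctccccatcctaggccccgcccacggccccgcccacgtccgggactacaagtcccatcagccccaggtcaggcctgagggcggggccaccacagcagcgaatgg
In Hmgcs1 the core lay 136 to 129 bases before the start, with 3 CCAAT boxes in the window. In Acat2 the core lay 181 to 174 bases before the start, with no CCAAT box. Acly held neither and had 4 GC boxes, GGGCGG on either strand.

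Promoters were found for 22 of the 29 members, with 28 start sites, and not for Fdps, Fdft1, Sqle, Stard4, Abcg1, Scd1 and Scd2. All motifs were searched on both strands in the 250 bases before the start. CCAAT stood in 60.7% of the member start sites (17 of 28), and in 33.8% of all 32851 promoters of the same length. GGGCGG stood in 71.4% of the member start sites and 32.7% of all promoters. CACCCCAC stood in 7.14% against 2.58%, and CACGTG, the E-box that SREBP-1 can also bind, in 17.9% against 6.02%. TCACNCCAC overlaps the core and stood in 3.57% against 1.05%. These matches are descriptions of letters in a window. Of the 6 members with a promoter that were lower in liver cKO cells, Hmgcs1, Idi1, Cyp51, Nsdhl and 1 of 3 starts of Dhcr7 held CCAAT, as did Mvd, which was higher. Members not called in the liver held it too: Mvk, Pmvk, Lss, Tm7sf2, Hsd17b7, Ebp, Insig1, Srebf1, Srebf2 and Fasn. In all 16 of the 22 members held CCAAT, so it was not particular to the lower ones.

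In the liver, most of the enzymes that make sterols were lower in cKO than in YFP+ NKT cells. Of the 16 sterol synthesis enzymes, 9 were lower and 1 was higher, while none of the 7 tested genes of sensing, control and transport passed the test. Acly, which supplies the acetyl-CoA for both pathways, was higher in the same cells. Over all members, 26 reached the test, which asks for an average level of 1 FPKM or more across the 6 libraries (Insig1, Acaca and Scd1 did not), and 2 were higher and 9 lower by limma at an adjusted p under 0.05. Across all 9591 genes tested in the liver, 27.2% were called, 7.49% as higher and 19.7% as lower. The median change of the 16 sterol synthesis enzymes was -0.49 on the log2(FPKM + 1) scale, that of the other 10 tested members 0.08, and that of all genes -0.11. The groups did not overlap for 12 lower and 2 higher members, beside a background of 29.6% and 14.7%. Changes are given on the log2(FPKM + 1) scale, which understates those of low genes, and folds are ratios of mean FPKM.

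The early mevalonate enzymes had 4 lower, 1 higher and 2 uncalled members in the liver, and their summed level was 48.5 ± 2.51 FPKM in cKO and 73.4 ± 2.88 FPKM in YFP+ cells (SD, n = 3). Acat2, which joins acetyl-CoA units at the entry, stood at 19.0, 23.3 and 22.4 FPKM in the cKO and 32.5, 30.8 and 31.4 FPKM in the YFP+ libraries. Every cKO library was below every YFP+ library, by 1.46-fold on average (log2 change -0.53 ± 0.10 SE, limma adjusted p = 0.00631). Hmgcs1, the synthase that makes HMG-CoA, stood at 2.88, 3.26 and 3.60 FPKM in cKO and 5.56, 5.10 and 6.11 FPKM in YFP+ libraries. It too was separated, 1.72-fold lower in cKO (log2 change -0.63 ± 0.13 SE, adjusted p = 0.00829).

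Idi1 and Fdps had the most negative changes of the early enzymes. Idi1, which interconverts the isoprenoid building blocks, stood at 2.01, 1.24 and 1.02 FPKM in cKO and 4.67, 3.56 and 4.55 FPKM in YFP+ liver libraries. The groups were apart, with a 3-fold lower cKO mean (log2 change -1.13 ± 0.18 SE, adjusted p = 0.00348). Fdps, which builds farnesyl diphosphate for sterols and for prenylation, stood at 8.97, 8.76 and 6.36 FPKM in cKO and 22.1, 18.1 and 17.1 FPKM in YFP+ libraries. The lowest YFP+ library was well above the highest cKO library, and the mean was 2.38-fold lower in cKO (log2 change -1.16 ± 0.15 SE, adjusted p = 0.00149).

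Between Hmgcs1 and Idi1 lie 3 enzymes that phosphorylate and decarboxylate mevalonate, and none was lower. Mvd, the decarboxylase, was the exception that rose: 7.62, 7.23 and 7.43 FPKM in cKO against 4.80, 6.34 and 5.30 FPKM in YFP+ liver libraries. The cKO values were higher by 1.36-fold without overlap (log2 change 0.39 ± 0.12 SE, adjusted p = 0.0488). This call is close to the threshold and was lost in 8 of 15 alternatives, with adjusted p of 0.130, 0.107 and 0.118 without cKO replicate 1, 2 or 3 and 0.0988 and 0.0914 without YFP+ replicate 1 or 3. With the replicate number as a block it was 0.0812. The kinases Mvk and Pmvk did not pass, at 3.31 ± 0.645 against 3.48 ± 0.760 FPKM and 3.49 ± 0.145 against 3.91 ± 0.309 FPKM (SD, n = 3).

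**Figure D1:**
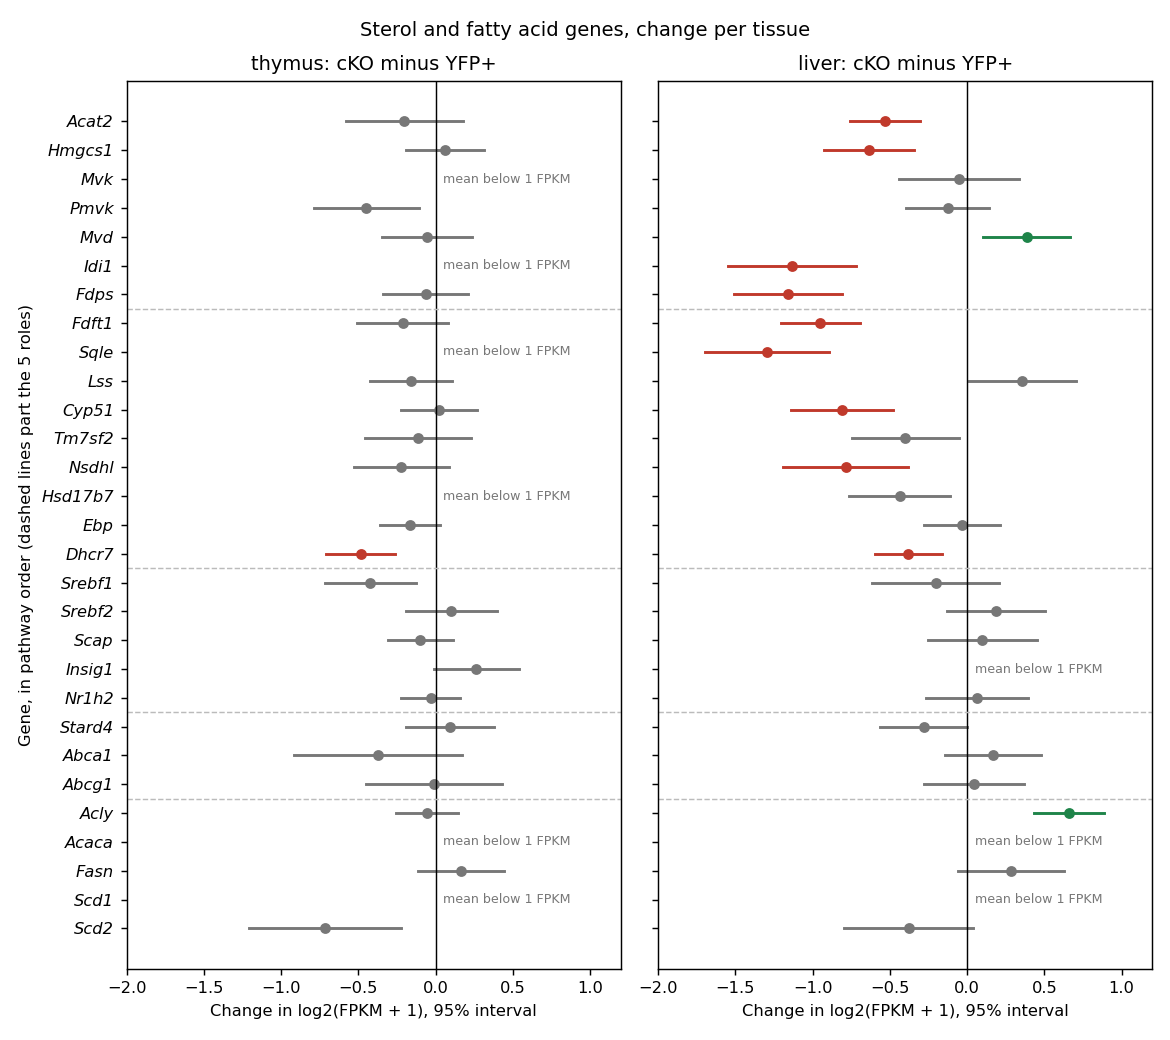
Change of each of the 29 members between cKO and YFP+ NKT cells in thymus (left) and liver (right), in log2(FPKM + 1), as estimate and 95% interval, in pathway order; n = 3 libraries a group. Red marks members lower and green members higher at a limma adjusted p under 0.05, grey those not called; the red points of the sterol enzymes reach -1.30 (Sqle) in the liver, and in the thymus only Dhcr7 is red.

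From squalene to cholesterol, 5 of 9 enzymes were lower in liver cKO cells and none was higher, with a summed level of 72.4 ± 0.474 FPKM against 94.6 ± 6.19 FPKM (SD, n = 3). Fdft1, squalene synthase and the first step committed to sterols, stood at 5.69, 6.31 and 5.41 FPKM in cKO and 13.2, 11.1 and 12.1 FPKM in YFP+ libraries. The groups were far apart, 2.09-fold lower in cKO (log2 change -0.95 ± 0.11 SE, adjusted p = 0.000959). Sqle, squalene epoxidase and a rate-limiting step, stood at 1.09, 1.78 and 1.16 FPKM in cKO and 4.16, 5.93 and 4.21 FPKM in YFP+ libraries. It had the largest change of the tested members in the liver, 3.55-fold lower in cKO (log2 change -1.30 ± 0.18 SE, adjusted p = 0.00176).

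The next enzyme, Lss, which closes the sterol ring, did not follow. It stood at 3.003 ± 0.411 FPKM in cKO and 2.13 ± 0.435 FPKM in YFP+ cells (SD, n = 3; adjusted p = 0.115), with overlapping groups. Cyp51, the lanosterol demethylase, stood at 3.24, 3.82 and 4.14 FPKM in cKO and 6.08, 8.26 and 7.66 FPKM in YFP+ libraries. It was lower in every cKO library, 1.96-fold on average (log2 change -0.81 ± 0.14 SE, adjusted p = 0.00536).

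Nsdhl, which acts in removing the methyl groups at carbon C-4, stood at 5.30, 4.08 and 3.12 FPKM in cKO and 6.63, 8.86 and 7.96 FPKM in YFP+ liver libraries. The groups did not overlap, at 1.88-fold (log2 change -0.78 ± 0.18 SE, adjusted p = 0.0136). Without YFP+ replicate 2 its adjusted p was 0.0577. Dhcr7, the last reductase, stood at 9.14, 9.42 and 9.56 FPKM in cKO and 12.6, 13.1 and 11.9 FPKM in YFP+ libraries. The step of 1.33-fold was small against the other lower enzymes and clear of overlap (log2 change -0.38 ± 0.09 SE, adjusted p = 0.0201). With median-ratio scaling Dhcr7 no longer passed (adjusted p = 0.0769), nor with quantile normalization (0.114), nor without cKO replicate 1 (0.0699), 2 (0.0629) or 3 (0.0554) or YFP+ replicate 2 (0.0760). Hsd17b7 and Tm7sf2, enzymes of the same stretch, were lower without overlap and did not pass (adjusted p = 0.0516 and 0.0827). Ebp, the isomerase and the highest of the sterol enzymes, stood at 42.3 ± 1.18 against 43.5 ± 5.91 FPKM (SD, n = 3; adjusted p = 0.846).

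**Figure D2:**
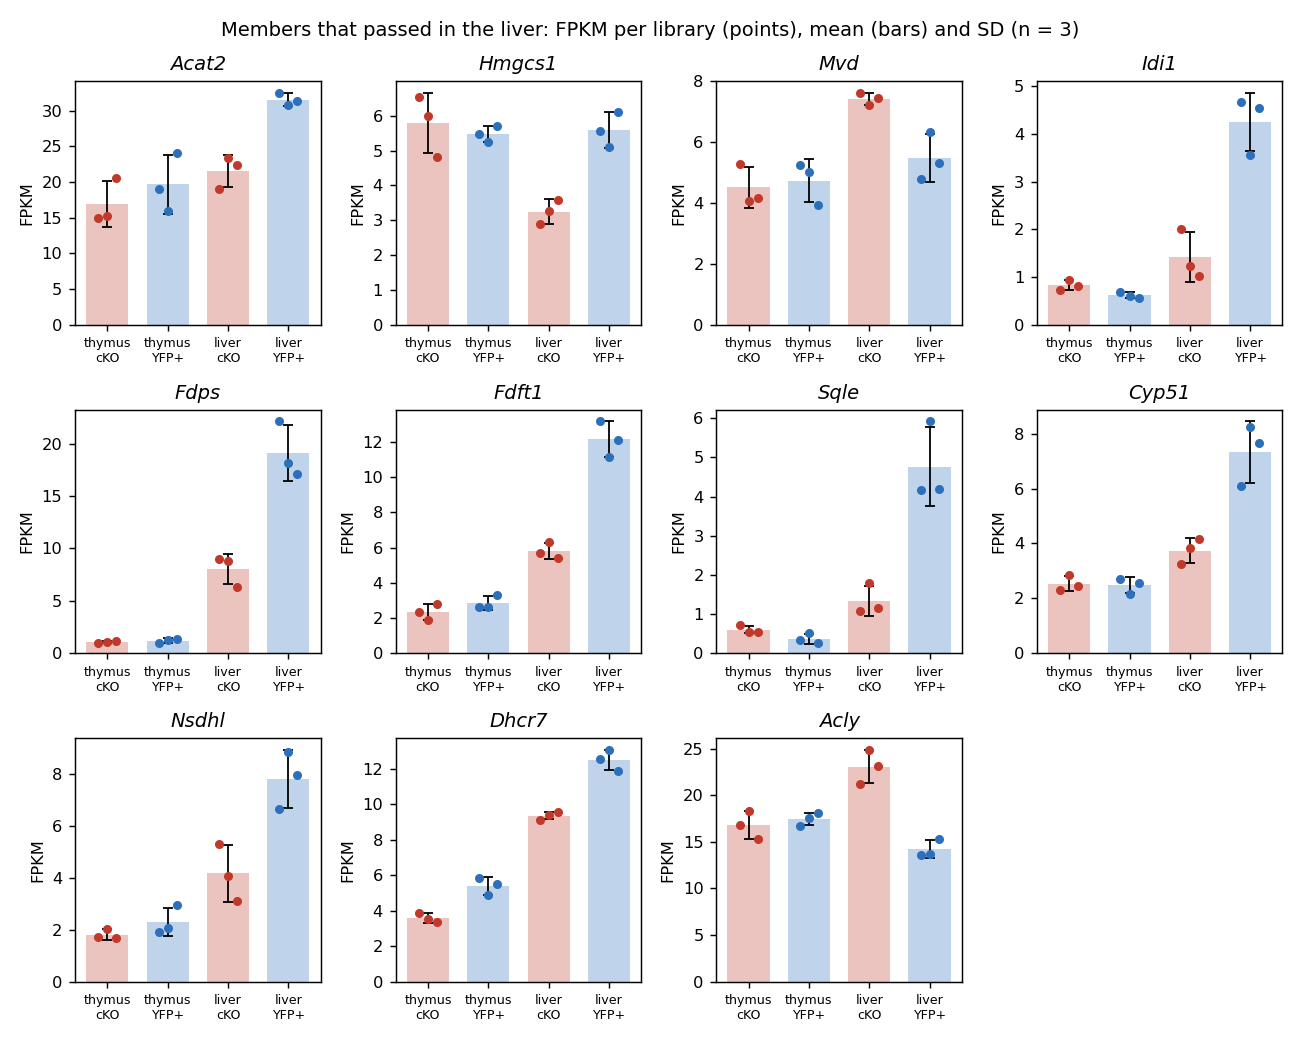
FPKM of the 11 members called in the liver, in each of the 12 libraries (points), with the group mean (bars, from 0) and SD (n = 3). In the liver the red cKO points lie below the blue YFP+ points for 9 genes and above them for Mvd and Acly; thymus and liver values come from separately normalized tables and are not compared in level.

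None of the tested regulators of the pathway passed in the liver. Srebf2, the main activator of sterol synthesis, stood at 4.45, 4.21 and 4.84 FPKM in cKO and 3.37, 3.56 and 4.64 FPKM in YFP+ libraries (log2 change 0.19, 95% interval -0.13 to 0.50, adjusted p = 0.349). Srebf1, whose products act more on fatty acid genes and whose isoforms the table does not part, stood at 8.22, 9.71 and 9.03 FPKM in cKO and 7.59, 11.7 and 12.9 FPKM in YFP+ libraries. The groups overlapped (log2 change -0.20, 95% interval -0.62 to 0.21, adjusted p = 0.436), but without YFP+ replicate 1 the change was -0.41 and passed (adjusted p = 0.034).

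Scap, the escort, stood at 1.85, 2.14 and 2.50 FPKM in cKO and 1.54, 2.33 and 2.02 FPKM in YFP+ liver libraries (log2 change 0.10, 95% interval -0.26 to 0.45, adjusted p = 0.677). Insig1, the retention factor and itself a target of SREBP, was listed at 0.099, 0.089 and 0.334 FPKM in cKO and 0.195, 0.143 and 0.382 FPKM in YFP+ libraries, too low to test. Nr1h2, a liver X receptor, stood at 29.2 ± 1.26 against 28.2 ± 6.15 FPKM (SD, n = 3). None of the 4 tested genes of sensing and control passed, and none had an unadjusted p under 0.05. FPKM measure RNA, and cleavage of the SREBP proteins was not measured.

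The transport genes did not pass in the liver either, 0 of 3. Abca1 and Abcg1, which export cholesterol, stood at 2.39 ± 0.295 against 2.01 ± 0.249 FPKM and 4.96 ± 0.731 against 4.78 ± 0.635 FPKM (SD, n = 3). Stard4, which carries sterol between membranes, was lower in every cKO library, at 4.47 ± 0.552 against 5.64 ± 0.377 FPKM, with an adjusted p of 0.126.

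Among the fatty acid genes, 1 of 3 tested members changed in the liver. Acly, ATP citrate lyase, stood at 21.2, 24.8 and 23.2 FPKM in cKO and 13.6, 13.7 and 15.3 FPKM in YFP+ libraries. All cKO libraries were above all YFP+ libraries, 1.62-fold on average (log2 change 0.66 ± 0.10 SE, adjusted p = 0.00281). Fasn, fatty acid synthase, stood at 6.66, 6.14 and 7.66 FPKM in cKO and 4.30, 5.80 and 6.27 FPKM in YFP+ libraries (log2 change 0.28, 95% interval -0.06 to 0.63, adjusted p = 0.197), and the groups overlapped at 1 pair of libraries. Of the desaturases, Scd2 stood at 1.78 ± 0.657 against 2.56 ± 0.304 FPKM (SD, n = 3; adjusted p = 0.159). Scd1 stayed between 0.175 and 0.499 FPKM over the 6 libraries, and Acaca, the carboxylase before Fasn, between 0.465 and 0.734 FPKM.

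In the thymus 1 of the 12 tested sterol synthesis enzymes passed. Of 23 tested members none was higher and 1, Dhcr7, was lower, where 15.7% of 9097 genes were called (2.64% higher, 13.1% lower). The median change of the members was -0.10 and that of all genes -0.16, and 4 members had an unadjusted p under 0.05. Among the 23 tested members the groups did not overlap for 4, all lower in cKO (Pmvk, Ebp, Dhcr7 and Srebf1), beside a background of 37.6%, and for none with cKO higher (background 5.34%). Pmvk reached the test only through the YFP+ libraries, where it is high, at 0.714 FPKM in cKO against 1.36 FPKM. Mvk, Idi1, Sqle, Hsd17b7, Acaca and Scd1 were too low to test. The changes of the 23 tested members ranged from -0.71 to 0.26, with 6 estimates above and 17 below 0. By role, 0 of 5 early mevalonate enzymes, 1 of 7 later enzymes, 0 of 5 genes of sensing and control, 0 of 3 transporters and 0 of 3 fatty acid genes passed.

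Dhcr7 stood at 3.88, 3.53 and 3.35 FPKM in thymus cKO and 5.87, 4.88 and 5.51 FPKM in thymus YFP+ libraries. All cKO values were lower, 1.51-fold on average (log2 change -0.48 ± 0.10 SE, adjusted p = 0.0166). This call was lost in 7 of 14 alternatives, such as with median-ratio scaling (adjusted p = 0.0544) and in the fits that left out cKO replicate 2 (0.0503) or 3 (0.0651), or YFP+ replicate 1 (0.0631) or 3 (0.0639). Srebf1 stood at 15.3, 10.6 and 11.7 FPKM in cKO and 17.4, 15.7 and 17.6 FPKM in YFP+ libraries. It was lower in every cKO library and missed the threshold (log2 change -0.42 ± 0.13 SE, adjusted p = 0.0573). Without thymus cKO replicate 1, the library with the highest erythroid sum, Srebf1 passed (log2 change -0.56, adjusted p = 0.00494), and 4 members were lower there in all (Abca1, Dhcr7, Scd2 and Srebf1).

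Of the 9 sterol enzymes that were lower in the liver, Dhcr7 alone was also called lower in the thymus; 6 others were tested there and did not pass, and Sqle and Idi1 were not tested. Fdps stood at 1.01, 1.12 and 1.21 FPKM in thymus cKO and 0.940, 1.31 and 1.40 FPKM in YFP+ libraries, and Hmgcs1 at 6.54, 6.01 and 4.83 against 5.47, 5.24 and 5.71 FPKM. Both overlapped (log2 changes -0.06 ± 0.12 and 0.06 ± 0.11 SE, adjusted p = 0.702 and 0.694). Fdft1 stood at 2.33, 1.89 and 2.801 against 2.64, 2.64 and 3.28 FPKM, and Cyp51 at 2.31, 2.85 and 2.44 against 2.72, 2.16 and 2.56 FPKM. Neither passed (adjusted p = 0.253 and 0.890). Sqle and Idi1 were under 1 FPKM in every thymus library. Sqle stood at 0.717, 0.544 and 0.550 FPKM in cKO and 0.348, 0.509 and 0.255 FPKM in YFP+ libraries, and Idi1 at 0.724, 0.935 and 0.819 against 0.696, 0.612 and 0.561 FPKM, in both cases with the cKO libraries above and no test within the thymus.

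Of the other members in the thymus, Acat2 stood at 14.95, 15.3 and 20.6 FPKM in cKO against 19.0, 15.9 and 24.1 FPKM in YFP+ libraries. Nsdhl stood at 1.74, 2.04 and 1.68 against 1.93, 2.05 and 2.94 FPKM, and Mvd at 5.29, 4.08 and 4.18 against 5.25, 5.01 and 3.93 FPKM. These 3 genes overlapped between groups and none passed (adjusted p = 0.388, 0.253 and 0.765). Acly stood at 16.8, 18.3 and 15.3 against 16.7, 17.5 and 18.1 FPKM, and its groups overlapped as well (adjusted p = 0.661).

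The regulators in the thymus, apart from Srebf1, overlapped between groups. Srebf2 stood at 9.13, 7.56 and 8.15 FPKM in cKO and 7.37, 9.23 and 6.48 FPKM in YFP+ libraries (log2 change 0.10, adjusted p = 0.564), and Scap at 5.24, 4.74 and 5.28 against 5.31, 5.21 and 6.05 FPKM (log2 change -0.10, adjusted p = 0.438). Insig1, which fell under the test's minimum in the liver, stood at 1.70, 2.06 and 2.17 FPKM in cKO and 1.70, 1.197 and 1.55 FPKM in YFP+ thymus libraries (log2 change 0.26, adjusted p = 0.145). Fasn stood at 10.2, 8.45 and 7.75 against 8.62, 7.87 and 6.70 FPKM (log2 change 0.16, adjusted p = 0.342). Scd2 had the most negative estimate of the tested members, at 2.03 ± 0.894 FPKM in cKO against 3.90 ± 0.866 FPKM in YFP+ cells (SD, n = 3), and did not pass (adjusted p = 0.0550).

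The change differed between tissues for 7 of 26 tested members by the test of the difference itself (liver change minus thymus change, all 12 libraries), with 1 higher and 6 lower. The deposited thymus values are named paired and the liver values single. Tissue and the way its values were made therefore cannot be told apart in any difference between tissues. Sqle and Idi1 reached the minimum of 1 FPKM over the 12 libraries only through the liver YFP+ libraries, where they are high, so their calls support nothing here; without them 4 were lower. Across 9739 genes, 15.1% were called, 9.14% as higher and 5.91% as lower. Those 4 were Fdps (-1.10 ± 0.20 SE, adjusted p = 0.00363), Cyp51 (-0.83 ± 0.18, 0.00915), Fdft1 (-0.74 ± 0.17, 0.0139) and Hmgcs1 (-0.70 ± 0.16, 0.0142). The estimates of the low pair were -1.53 ± 0.21 SE for Sqle (adjusted p = 0.000656) and -1.30 ± 0.20 SE for Idi1 (0.00157), and in the thymus their values are under 1 FPKM. Acly was the higher one (0.71 ± 0.13 SE, adjusted p = 0.00366). Acat2, Nsdhl, Mvd and Dhcr7, which passed in the liver, did not pass here (adjusted p = 0.314, 0.125, 0.119 and 0.635), so a difference between tissues was not shown for them. The pseudocount shrinks low thymus values. With a pseudocount of 0.1, Fdps, Cyp51, Fdft1 and Hmgcs1 were still lower and Acly higher.

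**Figure D3:**
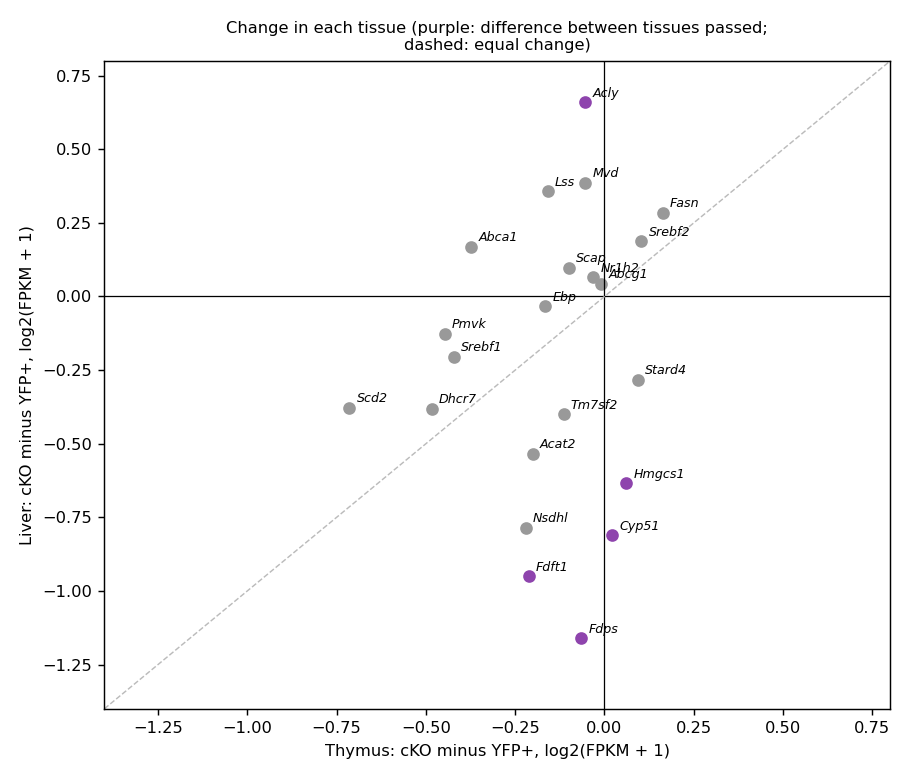
Change between cKO and YFP+ cells in the thymus (horizontal) against the liver (vertical) for the 22 members tested in both, in log2(FPKM + 1); the dashed line marks equal change, purple marks members whose difference between tissues passed. Fdps, Fdft1, Cyp51 and Hmgcs1 lie far below the line near a thymus change of 0, and Acly above it; Idi1 and Sqle are missing because they were too low to test in the thymus.

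Wider lists around the pathway were read in the same fits. Over all tested genes 7.49% were called higher and 19.7% lower in the liver, and 2.64% and 13.1% in the thymus. The counts of each list below stand beside these shares, and several of the thymus counts lie near them. Of 10 tested further sterol synthesis genes in the liver, 4 were lower and 1 was higher (Por), with a median of -0.31. Sc4mol, which removes the C-4 methyl groups together with Nsdhl, stood at 8.98, 11.6 and 9.99 FPKM in cKO and 19.9, 19.2 and 17.0 FPKM in YFP+ libraries (log2 change -0.82, adjusted p = 0.00229). Sc5d, the sterol desaturase, was lower as well (log2 change -0.53, adjusted p = 0.00194). In the thymus 1 of 10 genes of that list was lower, Cyb5r3 (log2 change -0.45, adjusted p = 0.0131). Cyb5r3 was lower in the liver too (log2 change -0.37, adjusted p = 0.0363), a call lost in 8 of 15 alternatives. The change of Sc4mol differed between tissues (-0.65, adjusted p = 0.0172). Sc4mol and Sc5d passed in all alternatives run in the liver. Por was lost in 7 of 15 (adjusted p up to 0.154), and Cyb5r3 in the thymus without cKO replicate 3 (0.0564) or YFP+ replicate 3 (0.0510).

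Among the genes that use isoprenoids 1 passed in each tissue. Of 13 tested prenylation and isoprenoid genes in the liver 1 was lower, Pdss1 of ubiquinone synthesis (log2 change -0.67, adjusted p = 0.0337), and of 15 in the thymus 1 was lower, Fntb, the beta subunit of farnesyltransferase (log2 change -0.57, adjusted p = 0.0160). Of the SREBP processing and nuclear receptor genes, 1 of 11 in the liver was higher (Sec24a, a coat protein of vesicles leaving the endoplasmic reticulum, log2 change 0.41, adjusted p = 0.0355) and 1 lower (Ufd1l, log2 change -0.49, adjusted p = 0.0203). In the thymus 2 of 12 were lower, Mbtps1, the site-1 protease that cleaves SREBP, and Rxra, partner of the liver X receptors (both log2 change -0.39, adjusted p = 0.0418 and 0.0402). These calls sat near the threshold: Pdss1 was lost in 8 of 14 alternatives, Fntb in 5 of 14, Sec24a in 8 of 14, Ufd1l in 4 of 14, Mbtps1 in 11 of 15 and Rxra in 10 of 14.

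Soat1, which stores cholesterol as ester, changed in opposite directions in the tissues. It stood at 40.3, 38.2 and 41.3 FPKM in liver cKO and 24.2, 24.6 and 33.4 FPKM in liver YFP+ libraries (log2 change 0.54, adjusted p = 0.0162). In the thymus it stood at 5.33, 4.20 and 4.31 FPKM in cKO and 7.81, 6.81 and 9.61 FPKM in YFP+ libraries (log2 change -0.69, adjusted p = 0.0146). The groups were apart in both tissues, with opposite order, and the difference passed (1.23 ± 0.20 SE, adjusted p = 0.00187). Within the liver Soat1 was lost when cKO replicate 1 (0.0569) or 3 (0.0563) or YFP+ replicate 2 (0.0632) was left out, and within the thymus when cKO replicate 3 (0.0564) or YFP+ replicate 1 (0.0507) or 3 (0.0514) was, while the difference passed in all 21 alternatives. Of the uptake, storage and transport list, 2 of 13 genes were higher in the liver (Soat1, and Soat2, which reached the test only through the cKO libraries, where it is high, at 1.94 against 0.874 FPKM) and 1 lower (Npc2, which hands cholesterol on in lysosomes), and 3 of 14 were lower in the thymus (Soat1, Osbpl2 and Gramd1a). In the thymus Soat2 did not pass (log2 change -0.20, adjusted p = 0.462). Within the liver Soat2 was lost in 5 of 14 alternatives and Npc2 in 1 of 15. Within the thymus Osbpl2 was lost in 6 of 15 and Gramd1a in 8 of 15.

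Of 14 wider fatty acid genes tested in the liver, 2 were higher and 5 lower. Fabp5, a fatty acid binding protein, had the largest change, at 5.90, 2.66 and 3.25 FPKM in cKO and 17.8, 14.3 and 15.6 FPKM in YFP+ libraries (log2 change -1.83, adjusted p = 0.00110). Oxsm, of mitochondrial fatty acid synthesis, was higher (log2 change 0.66, adjusted p = 0.00840), and Mlx, partner of the carbohydrate response factor, lower (log2 change -0.54, adjusted p = 0.0116). In the thymus 2 of 14 were lower, Lpcat3 and Tecr (log2 changes -0.50 and -0.39, adjusted p = 0.00829 and 0.0248). Both were lower in the liver too (log2 changes -0.38 and -0.34, adjusted p = 0.0189 and 0.0193). Fabp5 and Oxsm passed in all alternatives run in the liver and Lpcat3 in the thymus. Mlx was lost without liver YFP+ replicate 2 (0.0530) and with the length trend removed (0.0770). Tecr was lost in 10 of 15 alternatives in the thymus and 7 of 15 in the liver, and Lpcat3 in 6 of 15 in the liver.

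Several other lists moved with the sterol enzymes in the liver, and their part in the result was not tested. Of 21 tested cell cycle genes 16 were lower and 1 higher in cKO cells (Tyms), with a summed level of 302.4 to 314.9 FPKM in cKO against 458.3 to 465.1 FPKM in YFP+ libraries. Ccnb1, a mitotic cyclin, stood at 1.35, 2.41 and 2.54 against 12.2, 11.9 and 14.6 FPKM (log2 change -2.18, adjusted p = 0.000183). In the thymus 6 of 15 cell cycle genes were lower, led by the replication factors Mcm6 and Mcm2 (log2 changes -0.49 and -0.48, adjusted p = 0.00964 and 0.00907), at sums of 139.5 to 152.5 against 170.8 to 194.3 FPKM.

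Genes listed as markers of other cell types also differed in the liver. Whether their RNA came from such cells or from the sorted NKT cells themselves was not tested. All 6 tested DP thymocyte markers were lower in cKO cells (sums 23.5 to 24.6 against 82.4 to 91.3 FPKM), as were 6 of 8 myeloid markers (401.3 to 436.5 against 438.4 to 579.0 FPKM), 2 of 2 B cell markers (1.92 to 3.34 against 10.4 to 11.7 FPKM) and 4 of 4 erythroid markers (9.83 to 14.97 against 641.1 to 742.3 FPKM). Most of the myeloid sum was Fcer1g, at 358.5 FPKM in cKO against 354.2 FPKM. It was the 1 tested myeloid marker with an estimate above 0 (log2 change 0.02, limma adjusted p = 0.885). The hepatocyte list summed to 15.8 to 21.5 against 44.6 to 48.2 FPKM, and its 1 lower gene of 3 tested was Trf. In the thymus that list summed to 4.83 to 6.53 FPKM in cKO against 26.5 to 30.5 FPKM in YFP+ libraries, and Trf, the 1 gene of it tested there, was lower by 2.31 on the log2 scale (adjusted p = 6.62e-05), where the liver change was -1.59 (adjusted p = 0.000144). The defining hepatocyte marker Alb was listed at 0 in the 3 liver YFP+ libraries and at 0.053 to 0.059 FPKM in the cKO libraries, and Ttr at 0 in all 6. Of the liver endothelium and stroma list 1 of 2 tested genes was lower, with sums of 2.22 to 3.27 against 4.55 to 5.26 FPKM and Kdr at 0 in the YFP+ libraries. In the thymus 2 of 2 tested DP thymocyte markers were lower in cKO cells (sums 6.39 to 8.46 against 12.7 to 17.6 FPKM), and no marker of B cells or thymic epithelium reached the test. Of the endothelium and stroma list in the thymus, Fcgr2b was higher and Pecam1 lower in cKO cells (log2 changes 1.09 and -0.46, adjusted p = 0.00438 and 0.0364). Of the marker genes called, 3 DP thymocyte, 2 myeloid and 1 B cell gene in the liver, and Cd4, Fcgr2b and Pecam1 in the thymus, averaged under 1 FPKM in their lower group and reached the test through the other. In sorted bulk RNA, fewer cells with a gene's RNA and less RNA per cell cannot be told apart.

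**Figure D4:**
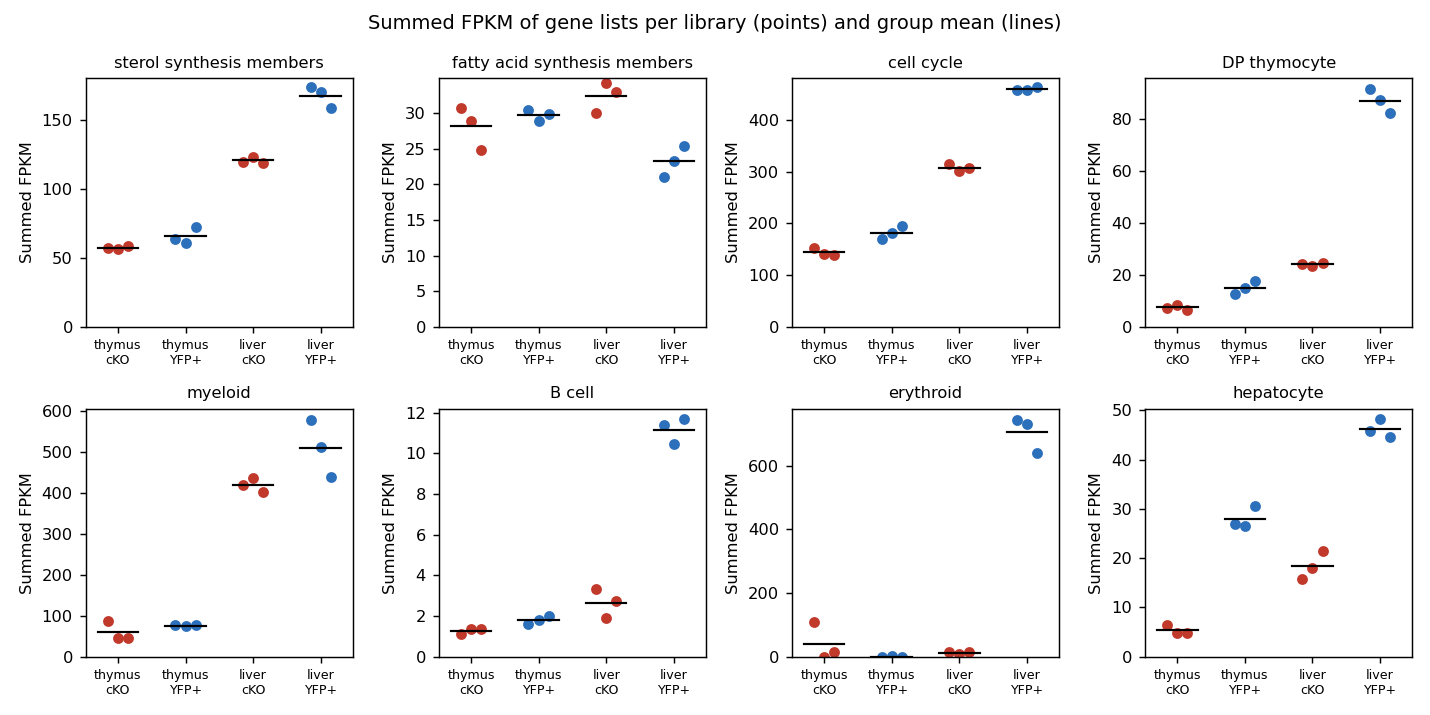
Summed FPKM of 8 gene lists in each of the 12 libraries (points; red cKO, blue YFP+) with the group mean (line). In the liver the sterol synthesis members (119.3 to 123.4 FPKM in cKO, 159.0 to 174.6 FPKM in YFP+) are lower in cKO alongside the cell cycle, DP thymocyte, B cell, erythroid and hepatocyte lists. Most of the hepatocyte sum there is 1 gene, Trf, at 12.2 FPKM in cKO and 38.4 FPKM in YFP+. The sum of the fatty acid members (30.0 to 34.3 against 21.0 to 25.4 FPKM) is higher, and Acly alone of its 3 tested genes passed.

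Transcript length moved with the change in the liver. Over the tested genes with a known transcript length the median change was -0.29 among short, -0.10 among middle and 0.04 among long transcripts. These were 3 classes of equal size by length, and the thymus had -0.17, -0.17 and -0.16. The 9 lower members had a median transcript length of 3027 bases and the other tested members 4426 bases. With the trend on length removed, a setting chosen after seeing the data, 8 of the 9 lower members stayed lower, Dhcr7 did not pass (adjusted p = 0.0973), Hsd17b7 did, and Mvd and Acly stayed higher.

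Scaling shifted all genes and left most of these calls in place. Median-ratio scaling moved the median change of all genes from -0.16 to -0.04 in the thymus and from -0.11 to -0.02 in the liver, and the share of higher among called genes from 16.8% to 46.5% and from 27.5% to 48.7%. With quantile normalization these shares were 48.3% and 57.3%. Relative to the median of all genes in the liver, Sqle changed by -1.19, Fdps by -1.05, Idi1 by -1.03, Fdft1 by -0.84, Cyp51 by -0.70, Nsdhl by -0.68, Hmgcs1 by -0.53, Acat2 by -0.43 and Dhcr7 by -0.27, and Acly by 0.77 and Mvd by 0.49. Under both scalings the same 8 members, all but Dhcr7, were lower in the liver and the same 2 higher, and in the thymus no member passed.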

How the data were processed

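RNA was measured in 12 libraries of sorted NKT cells, 3 in each of 4 groups. The authors deposited FPKM in 1 table per tissue, each with 23284 genes. Per the submitters' processing notes they used TopHat2 (given as 2.8.0), Cufflinks 2.1.1 and mouse build mm9. Per the labels' protocols, cDNA was made with the SMARTer Ultra Low Input kit from 10 ng of RNA, and libraries with a TruSeq or ThruPLEX kit, without saying which library had which. The tables were normalized separately, so levels were not tested between tissues. FPKM carry no read totals, so depth is unknown. No source states counting by strand, so reads of a gene and of an antisense or overlapping partner may be mixed. Library sums were 187828 to 212688 FPKM in the thymus and 450429 to 558042 FPKM in the liver, and 0 value columns were left unmapped.

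The test was limma-trend (limma 3.58.1, R 4.3.3) on log2(FPKM + 1) over every gene averaging 1 FPKM or more, Benjamini-Hochberg adjusted over all of them, two-sided, called under 0.05, and was tested on simulated data. Fits used the 6 libraries of a tissue, or all 12 for the difference between tissues. A constant offset between tables cancels there on this scale, and a difference in scale does not fully cancel for low genes. Members called in any comparison, and Srebf1, Srebf2, Scap, Insig1 and Fasn, are given per library. Of each other list, up to 3 genes per comparison are named, the largest changes that passed without overlap; others named (Por, Tyms, Trf, the identity genes, the remaining low members and the cell markers) were chosen after their values were seen. A gene this rule picks is withheld for evaluation and not reported here. The members and lists were chosen with earlier results of these data known. Transcript lengths are of the longest GENCODE M21 transcript. Genes whose symbol has none were left out of the length classes and of the fit with the length trend removed. Alternatives were median-ratio scaling, quantile normalization, the filter, the pseudocount, array weights, the replicate block and leaving out each library, and, added after seeing the data, removal of the length trend.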

Additional observations from a re-analysis of the deposited data

Results flagged for a closer look

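The change between cKO and YFP+ cells differed between liver and thymus, by the test of the difference itself (liver minus thymus, limma on log2(FPKM + 1) over 12 libraries), for 7 members. It was -1.53 for Sqle, -1.3 for Idi1, -1.1 for Fdps, -0.83 for Cyp51, -0.74 for Fdft1, -0.7 for Hmgcs1 and 0.71 for Acly. Sqle and Idi1 were under 1 FPKM in every thymus library and reached the test only through the liver YFP+ libraries. For Fdps, Cyp51, Fdft1, Hmgcs1 and Acly, the call held in all alternatives in which the gene was tested. The calls of Sqle and Idi1 support nothing here.

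Among the genes named from the wider lists, the difference was -0.65 for Sc4mol, 0.69 for Por, 0.85 for Rxra, 0.65 for Mbtps1, 1.23 for Soat1, 0.86 for Soat2, 0.73 for Osbpl2, -1.39 for Fabp5, 0.68 for Oxsm and 0.54 for Elovl5. Rxra averaged under 1 FPKM in the liver and was not tested within it. Fabp5 was near that minimum in the thymus, at 0.716 FPKM in cKO and 1.30 FPKM in YFP+ libraries. Sc4mol, Soat1 and Osbpl2 passed in all alternatives, Mbtps1 and Fabp5 in all but 1, while Soat2 was lost in 14 of 20, Oxsm in 11 of 20, Elovl5 in 11 of 21, Rxra in 7 of 20 and Por in 6 of 21. If the liver descriptions rather than the titles name the groups, the liver part of each value changes sign. Tissue and the way its values were made cannot be told apart in these differences.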

How the results depend on the processing

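In the liver, 9 members were lower and between 6 and 11 in the alternatives, within 1.5 times of the main count; leaving out each library gave 7 to 11. The count of 2 higher members fell to 1 with no filter on low values, array weights and the replicate block, and was 1 to 2 with each library left out. In the thymus the 1 lower member became 0 with median-ratio scaling, quantile normalization and the length trend removed, 4 with array weights and 0 to 4 with a library left out; the highest count was without cKO replicate 1. For the difference, the 6 lower members fell to 3 at a mean of at least 5 FPKM, where Idi1, Sqle and Cyp51 were not tested, and 1 to 2 were higher with a library left out (Abca1 joined without thymus cKO replicate 1, Lss without liver YFP+ replicate 2). Over all genes, the 1429 calls in the thymus became 789 with median-ratio scaling, 834 with quantile normalization, 801 with no filter, 2798 with array weights, 787 with the replicate block, 738 with the length trend removed and 472 to 2408 with a library left out. The 2607 calls in the liver became 3940 with array weights, 1695 with the length trend removed and 1539 to 2640 with a library left out, and the 1466 calls of the difference became 2634 with array weights. No named gene changed sign with a call. The cause of these shifts was not tested.

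Replicate numbers are shared between groups and did not pair the libraries: deviations of same-numbered libraries correlated at -0.000264, 0.00763 and -0.0465 in the thymus and 0.0659, 0.0191 and -0.0634 in the liver, so the block shares only a number. With 3 libraries a group and unknown depth, members averaging under 1 FPKM in a tissue were not tested within it, and the differences between tissues of Sqle and Idi1 rest on thymus values under 1 FPKM.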

Other observations

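Within a library, the members' places among all genes can be read without a test. Ebp ranked at the 88.8 ± 1.23 percentile of cKO and 88.8 ± 0.516 of YFP+ thymus libraries, and at 94.6 ± 0.0856 and 94.0 ± 0.790 in the liver (SD, n = 3). Sqle ranked at 57.8 ± 1.02, 53.6 ± 2.31, 61.8 ± 2.41 and 74.8 ± 2.20 in the same order. Insig1 ranked at 67.9 ± 1.59, 63.7 ± 1.52, 45.7 ± 4.95 and 48.6 ± 2.53, so it stood lower in the order of genes in the liver libraries of both origins. The tables of the tissues were made separately, and these ranks are descriptions only.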
